A study of Sus scrofa with 32 samples.

Results

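The genes described here are the 6 porcine MHC class II presentation genes that were listed by symbol (SLA-DRA, SLA-DQB1, SLA-DOA, HLA-DOB, CD74 and CIITA), out of 25880 genes in the deposited matrices. They were listed by name and not by a cutoff on their measured values, though with earlier results of these data known. All 6 passed the filter on low counts in each of 21 comparisons. Single-cell RNA sequencing libraries were made from the ileum of 2 mixed-breed pigs aged 7 weeks, pig 1 labelled female and pig 2 labelled male. From each pig, ileal wall holding Peyer's patches (PP), neighbouring wall that lacked them (non-PP) and a full cross section (whole ileum) were dissociated, and peripheral blood mononuclear cells (PBMC) were isolated from blood. No treatment was compared among the 8 libraries. The ileal suspensions were enriched for live lymphocytes, and epithelial and myeloid cells were few.

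MHC class II molecules are heterodimers on the surface of antigen-presenting cells that show peptides from endosomes to CD4 T cells. SLA-DRA encodes the alpha chain of the DR molecule and SLA-DQB1 the beta chain of DQ, CD74 is the invariant chain that escorts new class II molecules to the endosome, SLA-DOA and HLA-DOB encode the chains of DO, which restrains the peptide editor DM, and CIITA is the transactivator that switches class II genes on. B cells, dendritic cells and macrophages are the classical class II cells, and pig T cells, unlike those of mice, are known to carry class II as well.

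In the RefSeq annotation of Sscrofa11.1, 4 of the genes lie on chromosome 7: SLA-DRA from 24825037 to 24830650, SLA-DQB1 from 24969034 to 24977238, HLA-DOB (named SLA-DOB there) from 25030435 to 25038196 and SLA-DOA from 25178866 to 25182665. CD74 lies on chromosome 2 from 151402210 to 151409924, and CIITA on chromosome 3 from 32171706 to 32230775.

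After the study's quality filters on unique molecular identifiers (UMIs), genes (at least 550) and mitochondrial share per cell, and removal of doublets, 3676 to 7408 cells remained per library, 47161 in all, with a median of 2538 to 3514 UMIs per cell. The libraries held 21134542 to 40111934 UMIs over all barcodes. Cells were assigned to gates by lineage transcripts, none of them a class II gene, and 18923 cells fell in the T gate, 14564 in the B gate, 1330 in the monocyte gate, 339 in the antibody-secreting gate, 300 in the epithelial gate, 91 in the macrophage gate and 85 in the dendritic gate. A further 440 to 1879 cells per library fell in no gate and were left out of the gate sums. The T gate required CD3 transcripts, the B gate at least 2 B-cell transcripts, the macrophage gate C1Q, the dendritic gate AIF1 with a dendritic transcript, and the epithelial gate 3 epithelial transcripts without PTPRC. The monocyte gate, set in blood alone, required at least 2 monocyte transcripts. Of transcripts that the respective gate did not use, PTPRC, which marks all leukocytes, was found in 90.3% of ileal T-gate cells, FABP2 of enterocytes in 51.3% of epithelial-gate cells, and CSF1R of macrophages in 70.1% of ileal macrophage-gate and 15.6% of ileal dendritic-gate cells. The whole ileum library labelled pig 1 held Y-linked transcripts at the level of the pig 2 libraries, so whole ileum was kept out of the sums per pig and the comparisons were repeated with it. Cell barcodes shared between any pair of libraries numbered at most 80, where the sizes of that pair give 76.7.

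Levels are in CPM, the UMIs of a gene divided by all UMIs of the gate and scaled to counts per 1e6, given for pig 1 and then pig 2, with PP and non-PP cells summed for the ileum. Because 3' counting reads 1 fragment per transcript end, levels of different genes were not corrected for length. The order of the gates was the same for SLA-DRA, SLA-DQB1 and CD74 in both pigs: dendritic, macrophage, B, T and epithelial. SLA-DRA stood at 16152 and 14867 CPM in the ileal dendritic gate, 8984 and 10130 CPM in the macrophage gate, 1840.0 and 1924 CPM in the B gate, 413 and 571 CPM in the T gate, and 35.2 and 34.0 CPM in the epithelial gate. CD74 was the most abundant of the 6 in each of these gates, from 37101 and 32136 CPM in the dendritic gate to 73.0 and 107 CPM in the epithelial gate. CIITA, SLA-DOA and HLA-DOB were far scarcer, and among these 5 gates their highest levels were 72.0, 192 and 120.4 CPM, all in the dendritic gate. For SLA-DOA this held in pig 1 alone: in pig 2 it was at 87.0 CPM in the dendritic and 135 CPM in the macrophage gate. For SLA-DRA, SLA-DQB1 and CD74 both dendritic sums lay above both macrophage sums, but that difference did not pass the test (values below). Groups of 2 sums can lie apart without a true difference. Here and below, the share of all genes that lay apart was not counted. A lower level in a sum of cells can come from fewer cells with the transcript or from fewer UMIs per cell. For the T gate the shares of cells with a UMI are given.

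**Figure D1:**
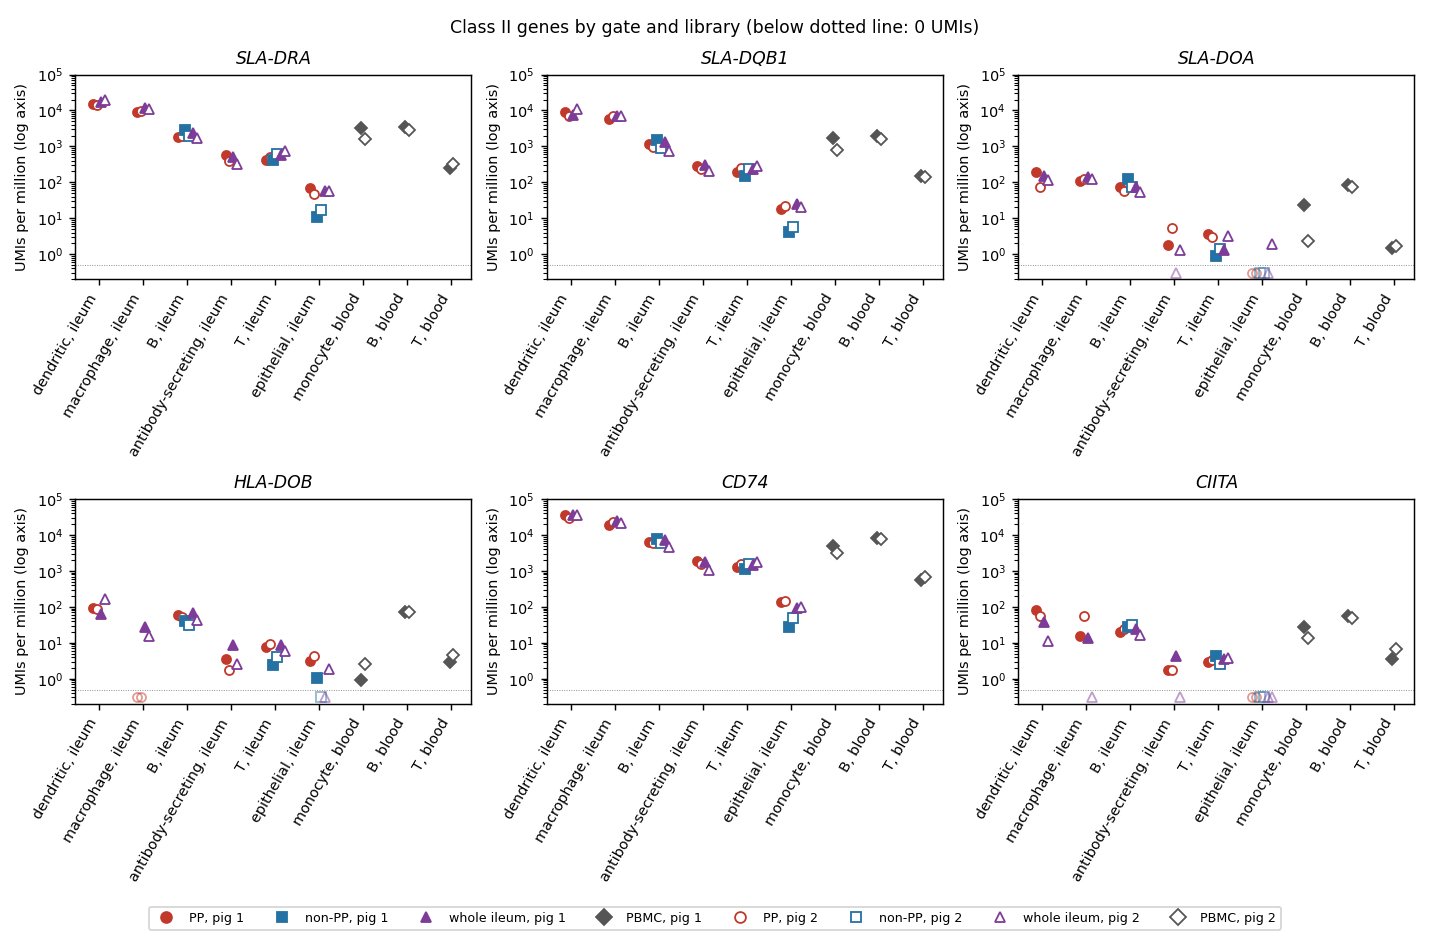
CPM (log axis) of each class II gene in every gate and library with enough cells; symbols mark the dissection, filled for pig 1 and open for pig 2, and faded symbols below the dotted line are libraries at 0 UMIs. SLA-DRA, SLA-DQB1 and CD74 fall from the dendritic and macrophage gates through B and T to the epithelial gate, HLA-DOB is at 0 in the macrophage gate of both PP libraries, and CIITA is at 0 in the epithelial gate of every ileal library.

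The ileal dendritic gate (17 and 27 cells) was compared with the ileal B gate (3256 and 3182 cells) to ask which genes differ between professional presenting cells of the same tissue. SLA-DRA was higher in dendritic cells by 2.90 ± 0.30 on the log2 scale (± SE, 7.46-fold, adjusted p = 2.06e-05), SLA-DQB1 by 2.83 ± 0.32 (adjusted p = 3.83e-05) and CD74 by 2.35 ± 0.24 (adjusted p = 1.61e-05), in edgeR's quasi-likelihood test with Benjamini-Hochberg adjustment over all genes. These were 3 of the 6 genes, where 13.5% of all genes tested passed. SLA-DOA (0.87 ± 0.73), HLA-DOB (0.96 ± 0.35, adjusted p = 0.0946) and CIITA (1.52 ± 0.55, adjusted p = 0.0932) did not pass. With DESeq2, 5 of the 6 passed.

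The other genes of the pathway were read from a list of chains, proteases, transcription factors and costimulatory molecules, of which 28 are named in the files. In the dendritic gate 11 of the 28 rose and 1 fell against B cells, where 13.5% of all genes differed. The 4 largest changes were those of the lysosomal cathepsins CTSB (2.98 ± 0.47) and CTSS (2.74 ± 0.29, which trims the invariant chain), the costimulatory ligand CD80 (2.31 ± 0.59), and the asparaginyl endopeptidase LGMN (2.07 ± 0.52). Both named chains of DM, SLA-DMA and SLA-DMB, rose.

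In the ileal macrophage gate (30 and 15 cells), 4 of the 6 genes differed from B cells, where 17.3% of all genes did. SLA-DRA was higher by 2.19 ± 0.29 (adjusted p = 0.000129), SLA-DQB1 by 2.43 ± 0.31 (adjusted p = 8.9e-05) and CD74 by 1.58 ± 0.23 (adjusted p = 0.000278). SLA-DOA stood at 112 and 135 CPM in macrophages and 72.6 and 56.3 CPM in B cells and did not pass (0.77 ± 0.73), and CIITA at 13.1 and 49.2 CPM did not either (0.12 ± 0.74). Of the pathway list 14 of 28 rose and 2 fell, among them 7 of 8 genes of antigen processing, with a list median of 4.75 against -0.66 over all genes. CTSL (5.22 ± 1.06), CTSS (5.11 ± 0.31), LGMN (5.01 ± 0.42) and CTSD (4.98 ± 0.38) led the rise.

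HLA-DOB was the gene in which the macrophage gate of PP and non-PP differed from both the dendritic and the B gate. It had 0 UMIs among 233720 in the 45 ileal macrophage-gate cells of PP and non-PP, which allows a level of up to 12.8 CPM (3 counts over the gate, counting error only). The dendritic gate held 108 and 120.4 CPM and the B gate 57.6 and 51.0 CPM. Against the limit for PP and non-PP macrophages, HLA-DOB was at least 9.03-fold higher in dendritic cells and at least 4.23-fold higher in B cells, with adjusted p = 0.00368 and 0.00173. Without pig 1 the difference from B cells had adjusted p = 0.0733. Its partner SLA-DOA was present in the same macrophages, at 12.4 and 13.4 UMIs per 1000 UMIs of SLA-DRA. In the macrophage gate of the whole ileum libraries, which were not part of those sums, 3 UMIs of HLA-DOB stood beside 18 of SLA-DOA in 32 cells, a level of 21.6 CPM that lies above the limit in PP and non-PP. With those libraries added, HLA-DOB differed from B cells by -2.85 ± 0.59 (adjusted p = 0.00244) and dendritic cells held more than macrophages by 3.80 ± 0.60 (adjusted p = 0.00249). The limit and the folds above hold for PP and non-PP alone.

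Between the dendritic and macrophage gates, HLA-DOB was the only 1 of the 6 genes to pass, where 1.96% of all genes did. SLA-DRA differed by 0.71 ± 0.28 (adjusted p = 0.32), SLA-DQB1 by 0.39 ± 0.30 (adjusted p = 0.71) and CD74 by 0.78 ± 0.23 (adjusted p = 0.118). Leaving out either pig, which leaves 1 sum per gate, left 0 of 6 past the threshold, as did sums kept apart by library. CTSD (-5.40 ± 0.50), LGMN (-2.93 ± 0.48) and CTSS (-2.38 ± 0.28), the processing proteases, were lower in dendritic cells, and the other 25 of the 28 pathway genes did not pass. Between these gates DESeq2 also called 1 of the 6 genes.

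All 6 genes were higher in the ileal B gate than in the ileal T gate (5133 and 4288 T cells), where 37.2% of all genes differed in either direction. The difference was 1.90 ± 0.31 for SLA-DRA, 2.37 ± 0.33 for SLA-DQB1 and 2.12 ± 0.24 for CD74. It was 4.95 ± 0.73 for SLA-DOA (30.8-fold), 3.34 ± 0.27 for HLA-DOB and 2.68 ± 0.38 for CIITA, with adjusted p between 1.17e-05 and 0.00101. All 6 passed under each of the 14 other settings run for this comparison. SLA-DOA was at 72.6 and 56.3 CPM in B cells and 1.97 and 2.07 CPM in T cells. Against SLA-DRA, the DO chains were scarcer in T cells than in B cells: SLA-DOA counted 39.4 and 29.3 UMIs per 1000 UMIs of SLA-DRA in B cells and 4.76 and 3.62 in T cells, and HLA-DOB 31.3 and 26.5 in B cells and 10.53 and 10.72 in T cells. The ratio of CD74 to SLA-DRA lay closer, at 3.43 and 3.10 in B cells and 2.93 and 2.69 in T cells. Of the 28 pathway genes 11 were higher in B cells and 9 lower. The 4 largest were CD40, the receptor for T-cell help (5.82 ± 0.41), the ubiquitin ligase MARCHF1, which takes class II off the surface (5.41 ± 0.35), the transcription factor SPI1 (4.94 ± 0.45), and CD83, which opposes that ligase (4.09 ± 0.43).

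Class II levels varied widely inside the B lineage. Ileal B cells with CCR7, a chemokine receptor that guides lymphocytes in lymphoid tissue, and without cycling transcripts (296 and 200 cells) held 4584 and 4863 CPM of SLA-DRA. Cycling B cells (1637 and 1582 cells) held 1348 and 1422 CPM, and antibody-secreting cells (72 and 79 cells) 525.5 and 374.5 CPM. The 3 populations did not overlap. CPM is a share of the UMIs of a gate, and depth differed: the CCR7-positive sums held 755502 and 572751 UMIs. The cycling sums held 8739921 and 8866970 and the antibody-secreting sums 624109 and 632790 UMIs, both more per cell. A drop in CPM in either is thus larger than the drop in UMIs per cell, which was not tested. JCHAIN alone took 127856 CPM in the antibody-secreting gate, and the TMM scaling used in the fits raises the levels of the other genes there: on that scale SLA-DRA was at 856 and 796 CPM in antibody-secreting and 4835 and 5367 CPM in CCR7-positive cells. In cycling against CCR7-positive B cells 5 of 6 genes were lower, where 28.5% of all genes differed: SLA-DRA by -2.01 ± 0.35, SLA-DQB1 by -2.43 ± 0.34, SLA-DOA by -1.65 ± 0.28, HLA-DOB by -2.12 ± 0.30 and CD74 by -1.75 ± 0.19, with adjusted p between 6.21e-06 and 0.000461. CIITA stood at 39.7 and 29.7 CPM in CCR7-positive and 16.6 and 19.0 CPM in cycling cells, a difference of -1.20 ± 0.48 (adjusted p = 0.0677) that passed with the pig as a replicate block (adjusted p = 0.0268). Without pig 1, SLA-DOA no longer passed (adjusted p = 0.0555). In cycling B cells 14 of 26 pathway genes tested fell and 1 rose. CD83 (-2.86 ± 0.32), CD80 (-2.32 ± 0.50), IRF1, a factor of the interferon response (-2.12 ± 0.22), and LGMN (-1.75 ± 0.38) fell most.

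All 6 genes were lower in antibody-secreting cells than in CCR7-positive B cells, where 20.9% of all genes differed. The decrease was smallest for CD74 (-2.24 ± 0.20, adjusted p = 3.27e-07) and SLA-DRA (-2.63 ± 0.36, adjusted p = 5.05e-05), and larger for SLA-DQB1 (-3.00 ± 0.35), CIITA (-3.65 ± 0.89, adjusted p = 0.00659), SLA-DOA (-4.58 ± 0.50) and HLA-DOB (-5.06 ± 0.55, adjusted p = 3.85e-06). In plain CPM HLA-DOB fell from 144 and 131 CPM to 3.21 and 1.58 CPM, and CIITA from 39.7 and 29.7 CPM to 1.60 and 1.58 CPM. The CIITA call was lost with either pig left out (adjusted p = 0.189 and 0.0692). Among 26 pathway genes 2 rose and 9 fell. PRDM1, the repressor that drives plasma cell differentiation and silences CIITA, was higher by 5.36 ± 0.71, but it is one of the transcripts that defined this gate, and SLA-DMB (-4.16 ± 0.37), CD83 (-3.78 ± 0.38) and RFX5, a subunit of the factor that binds class II promoters (-3.41 ± 0.79), fell.

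**Figure D2:**
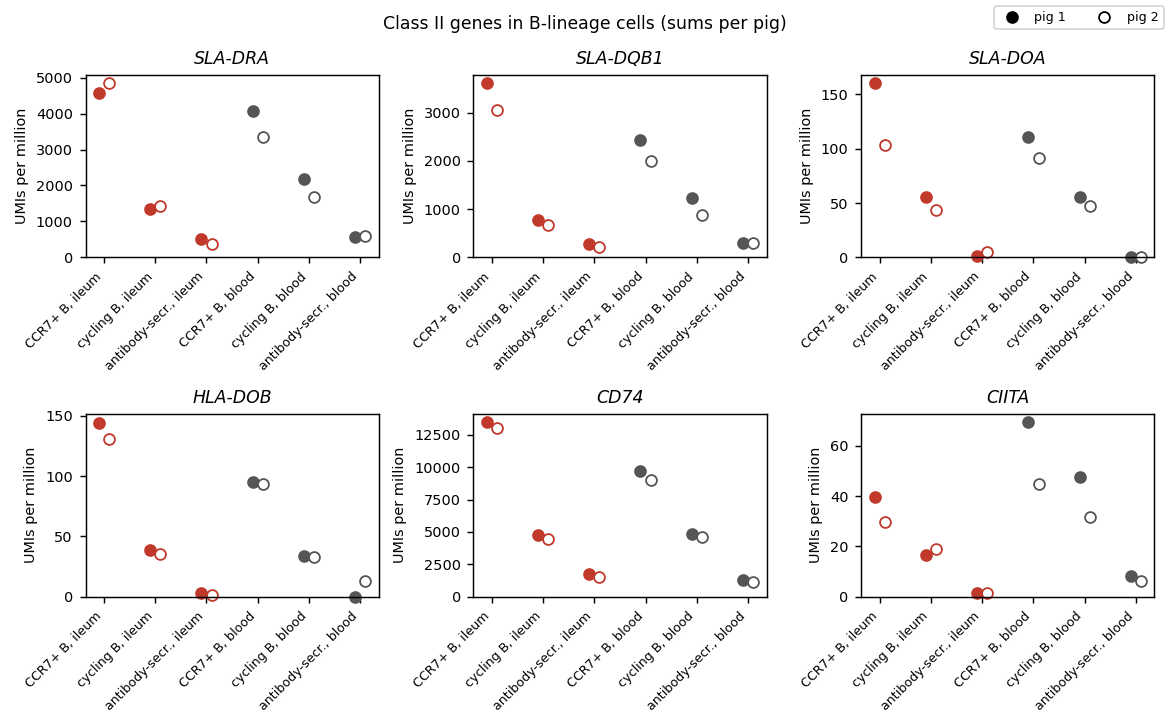
CPM of each class II gene in CCR7-positive, cycling and antibody-secreting B-lineage cells of ileum (red) and blood (grey), 1 point per pig (filled pig 1, open pig 2). In the ileum every gene is highest in CCR7-positive cells of both pigs and lowest in antibody-secreting cells, and SLA-DRA falls from 4584 and 4863 to 525.5 and 374.5 in plain CPM (4835 and 5367 to 856 and 796 on the TMM scale).

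Ileal and blood B cells were then compared as whole gates. SLA-DRA was at 1840.0 and 1924 CPM in the ileum and 3417 and 2908 CPM in blood, and CIITA at 20.1 and 23.7 CPM in the ileum and 55.3 and 49.5 CPM in blood. Neither overlapped between sites. SLA-DRA (-0.94 ± 0.30, adjusted p = 0.0448) and CIITA (-1.44 ± 0.34, adjusted p = 0.0137) were lower in the ileum, 2 of 6 genes where 25.7% of all genes differed. SLA-DQB1 (-0.92 ± 0.31, adjusted p = 0.0544), HLA-DOB (-0.63 ± 0.24, adjusted p = 0.0837), CD74 (-0.54 ± 0.23) and SLA-DOA (-0.48 ± 0.59) did not pass. With the pig as a replicate block, SLA-DQB1 and HLA-DOB passed too (adjusted p = 0.0249 and 0.0248), 4 of 6. With either pig left out 0 of 6 passed, and without non-PP of pig 2 SLA-DRA did not (adjusted p = 0.0597).

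The makeup of the gate moved with this result. Cycling cells made up 50.3% and 49.7% of the ileal B gate and 12.4% and 10.9% of the blood B gate. Among CCR7-positive cells alone, a comparison added after the data were seen, 0 of 6 genes passed in edgeR. Differences turned sign for all genes but CIITA: SLA-DRA was 0.40 ± 0.34, SLA-DQB1 0.64 ± 0.33, HLA-DOB 0.60 ± 0.32 and CD74 0.55 ± 0.19 (adjusted p = 0.0913). SLA-DOA turned as well, at 168.9 and 113.7 CPM in the ileum and 114.9 and 95.75 CPM in blood on the TMM scale, and its sites overlapped. CIITA kept its sign at -0.64 and no longer passed. How much of the difference of the whole gates the cycling share carries was not tested. Of the pathway list 3 of 28 rose and 5 fell in the ileal B gate, which lies near the 25.7% of all genes that differed. CD83 (3.08 ± 0.41), PRDM1 (1.96 ± 0.39) and the B-cell and myeloid factor IRF8 (1.62 ± 0.23) were higher and CD80 (-2.62 ± 0.25) lower.

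Ileal macrophages were compared with blood monocytes (334 and 996 cells). Of the 6 genes 4 were higher in the ileum, where 8.14% of all genes differed: SLA-DRA by 1.65 ± 0.29 (adjusted p = 0.00286), SLA-DQB1 by 2.06 ± 0.31 (adjusted p = 0.000983), SLA-DOA by 3.20 ± 0.85 (adjusted p = 0.0353) and CD74 by 2.00 ± 0.23 (adjusted p = 0.000177). The monocytes of the pigs stood apart. SLA-DRA was 3306 CPM in pig 1 and 1593 CPM in pig 2, and SLA-DOA was 23.8 and 2.35 CPM. Both stayed below the macrophage levels of 8984 and 10130 CPM for SLA-DRA and 112 and 135 CPM for SLA-DOA. Without pig 2, 2 of 6 passed, and SLA-DRA (adjusted p = 0.0504) and SLA-DOA (adjusted p = 0.066) did not. HLA-DOB was at 0.93 and 2.65 CPM in monocytes and at 0 in macrophages, so no fold is given. CTSL (4.91 ± 1.11), PRDM1 (3.42 ± 0.75), CD83 (3.32 ± 0.48) and CTSD (2.94 ± 0.35) led 8 of 28 pathway genes that rose, and 1 fell.

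Class II transcripts were found across the T gate of both sites. A UMI of SLA-DRA was detected in 48.8% to 61.2% of T-gate cells in the 6 ileal libraries and 46.1% and 47.8% in blood. With each cell thinned to the minimum depth of the filter these shares were 30.8% to 45.1% and 22.8% and 26.6%. CD74 was detected in 74.4% to 82.3% of ileal T-gate cells, and CIITA in 0.77% to 1.26%.

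Free RNA from B cells can add UMIs to T cells, so the B-cell transcripts CD79A and CD79B were read in the same cells. In the non-PP libraries CD79B was at 0.79 and 1.29 CPM in the T gate, found in 0.18% and 0.29% of cells, while SLA-DRA was at 418 and 609 CPM, found in 48.8% and 61.2%. The median depth was 2528 and 2678 UMIs. The free RNA of these 2 libraries was itself low in CD79B, at 8.49 and 13.6 CPM, and held SLA-DRA at 320 and 600 CPM. In T-gate cells without a UMI of CD79A, CD79B or JCHAIN, SLA-DRA was at 442 CPM in PP pig 1, 489 CPM in PP pig 2, 427 CPM in non-PP pig 1 and 610 CPM in non-PP pig 2, next to 407, 516, 418 and 609 CPM over all T-gate cells. The limit on free RNA depended on the tracers. With CD79A, CD79B and JCHAIN all taken as free RNA it was 15.2% to 150.3% of the SLA-DRA UMIs across the 8 libraries, over 100% in PP of pig 1 and whole ileum of pig 2, and 11.5% to 107.9% of the CD74 UMIs. JCHAIN stood at 1060 CPM in the ileal T gate and 506.5 CPM in the ileal B gate, and a limit from CD79A and CD79B alone was added after the data were seen. That limit was 17.0% to 39.4% of the SLA-DRA UMIs and up to 29.9% of the CD74 UMIs. For SLA-DOA the limit was 37.6% to 138%, above 100% in whole ileum of pig 1. CD79A was at 4.23 and 3.62 CPM in the T gate of the non-PP libraries and 1.29 and 0.544 CPM in their free RNA. It thus stood above its free RNA level in those T cells, and a limit from CD79B alone was not computed.

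The question of whether T cells in the gut differ from those in blood was read in the T gate first. CD74 was at 1211 and 1538 CPM in the ileum and 557 and 692 CPM in blood, and SLA-DRA at 413 and 571 CPM and 255.5 and 323 CPM. Neither overlapped between sites. CD74 was higher in the ileum by 1.10 ± 0.23 (adjusted p = 0.0102), the only 1 of 6 genes to pass where 16.6% of all genes did, and SLA-DRA differed by 0.72 ± 0.30 (adjusted p = 0.13). The CD74 call was lost with either pig left out (1.11, adjusted p = 0.114, and 1.10, adjusted p = 0.0918), with sums kept apart by library and with free RNA subtracted. With the whole ileum libraries added 2 genes passed. CD83 (3.82 ± 0.53), LGMN (2.09 ± 0.36) and IRF8 (1.25 ± 0.23) rose in ileal T cells and MARCHF1 fell by 1.57 ± 0.40 on the log2 scale, among 3 higher and 2 lower of 28 pathway genes. CD83 and MARCHF1 were scarce here, on the TMM scale at 10.25 and 11.07 CPM and 0.761 and 0.510 CPM in the ileum. In blood they were at 0.453 and 1.071 CPM and 1.284 and 2.677 CPM. The B gate held 193 and 170 CPM of CD83 in the ileum and 18.4 and 24.7 CPM in blood. For IRF8 it held 242 and 234 CPM and 67.8 and 86.8 CPM. The part of free RNA in these changes was not tested.

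The subsets of the T gate were compared one by one. CD4 T cells were T-gate cells with a CD4 UMI and none of CD8B or TRDC, CD8 T cells had CD8B alone of the 3, and gamma delta T cells had TRDC alone and were split by CD2. The CD4 T cells (271 and 253 ileal, 200 and 357 blood) had SLA-DRA at 93.0 and 205 CPM in the ileum and 185.5 and 246 CPM in blood, and the sites overlapped. Among PP and non-PP the overlap rests on 1 library. SLA-DRA was at 92.9 and 111 CPM in PP, 93.3 CPM in non-PP of pig 1 and 369 CPM in non-PP of pig 2 (85 cells). Whole ileum, outside these sums, stood at 186.7 CPM in the library labelled pig 1 (169 cells) and 161.4 CPM in pig 2 (129 cells). The first of these also reached the blood level of pig 1. None of the 6 genes passed, where 8.24% of all genes did: SLA-DRA differed by -0.57 ± 0.35, SLA-DQB1 by -0.72 ± 0.35 and CD74 by 0.42 ± 0.19, and DESeq2 also called 0. Without non-PP of pig 2, left out after the data were seen, SLA-DRA was lower in the ileum by -1.13 (adjusted p = 0.028) and both ileal sums lay below both blood sums. CD74 and HLA-DOB (1.19 ± 0.56) had unadjusted p of 0.0394 and 0.0488. The limit that CD79A and CD79B set on free RNA was over 100% of the SLA-DRA UMIs in 4 of 6 ileal libraries of this subset, at 100.2% to 234%. The highest came from 1 tracer UMI in non-PP of pig 1 (46 cells). With JCHAIN included the limit was 4.51% to 1135% over the 6. In the same cells 5 of 26 pathway genes rose, led by CD83 (3.94 ± 0.83), CD40 (3.81 ± 1.11), LGMN (3.36 ± 0.36) and IRF8 (2.06 ± 0.28). CD83 and CD40 were scarce here, on the TMM scale at 10.8 and 13.9 CPM and 3.61 and 8.83 CPM in the ileum. In blood they were at 1.06 and 0.566 CPM and 0 and 0.566 CPM. The ileal B gate held 193 and 170 CPM of CD83 and 151 and 161 CPM of CD40. The part of free RNA in these rises was not tested.

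CD8 T cells (921 and 803 ileal, 429 and 641 blood) had CD74 at 1091 and 1504 CPM in the ileum and 676 and 822 CPM in blood, which did not overlap. CD74 was higher in the ileum by 0.79 ± 0.19 (adjusted p = 0.0116), 1 of 6 genes where 10.4% of all genes passed, and SLA-DRA (0.40 ± 0.34) and SLA-DQB1 (0.01 ± 0.33) did not pass. That call was lost without pig 1 (0.84, adjusted p = 0.104), without pig 2 (0.73, adjusted p = 0.189) and after subtraction of free RNA. The difference between the CD8 and CD4 changes was tested directly and 0 of 6 genes passed in edgeR or DESeq2, where 0.32% of all genes did (SLA-DRA 0.96 ± 0.49, unadjusted p = 0.0662, adjusted p = 0.694). No gene of the 6 had an unadjusted p under 0.05.

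Gamma delta T cells had the largest fold changes of SLA-DRA and CD74 between sites among the 4 subsets compared. The CD2-negative gate rests on the absence of a CD2 UMI, so CD2-positive cells whose CD2 transcript was not read fall in it too. In the ileum 0.0641% of all genes differed between the CD2-positive and CD2-negative gates, and GATA3, a T-cell transcription factor, was at 48.8 and 51.7 CPM in the first and 90.1 and 85.0 CPM in the second, against 319.9 and 521 CPM in the CD2-negative gate of blood. The part of this difference in makeup in the values that follow was not tested. Gamma delta T cells without a CD2 UMI had SLA-DRA at 572 and 656 CPM in the ileum (358 and 274 cells) and 200.1 and 101 CPM in blood (283 and 342 cells). CD74 was at 1702 and 1993 CPM and 511 and 484 CPM. Both were higher in each ileal sum than in either blood sum, and the share of all genes that lay apart in this way was not counted. SLA-DRA rose by 2.08 ± 0.36 (4.24-fold, adjusted p = 0.00119), SLA-DQB1 by 2.10 ± 0.36 (adjusted p = 0.00102) and CD74 by 1.94 ± 0.20 (adjusted p = 6.11e-06), 3 of 6 genes where 9.55% of all genes passed. SLA-DOA (0.48 ± 0.82), HLA-DOB (-0.10 ± 0.64) and CIITA (-0.32 ± 0.93) did not, at levels of 1.16 to 6.96 CPM. SLA-DMB (1.94 ± 0.34) and SLA-DMA (1.32 ± 0.21), the chains of DM, rose with them, as did CD83 (4.15 ± 0.68) and IRF8 (3.49 ± 0.37). On the TMM scale CD83 was at 19.8 and 44.6 CPM in the ileum and 1.16 and 2.235 CPM in blood. IRF8 was at 45.9 and 44.6 CPM and 4.65 and 3.35 CPM. The part of free RNA in the rises of CD83 and IRF8 was not tested.

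A GATA3 UMI was found in 14.0% of ileal CD2-positive, 19.1% of ileal CD2-negative and 57.9% of blood CD2-negative gamma delta T cells, so a GATA3 UMI does not tell the ileal gates apart. Among CD2-negative cells with a GATA3 UMI (68 and 50 ileal, 141 and 221 blood), added after the data were seen, the 3 genes passed again: SLA-DRA stood at 525 and 643 CPM against 189 and 98.5 CPM, and CD74 at 1386 and 1904 CPM against 471 and 428 CPM. The limit that CD79A and CD79B set on free RNA was 0% to 50.4% of the SLA-DRA UMIs of the ileal CD2-negative cells and 37.2% and 156% in blood, and with JCHAIN as a further tracer 6.22% to 440% and 60.5% and 64.4%. In blood CD79A was at 10.20 and 13.9 CPM in the CD2-negative cells and at 7.24 and 4.65 CPM in free RNA. Without pig 2, CD74 alone passed, and with free RNA subtracted 1 gene passed (CD79A and CD79B as tracers) or 0 (JCHAIN included).

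CD2-positive gamma delta T cells (1243 and 1068 ileal, 246 and 162 blood) were compared between sites as well, after the data were seen. SLA-DRA was at 588 and 732 CPM in the ileum and 294 and 220.0 CPM in blood and rose by 1.39 ± 0.35 (adjusted p = 0.0155), and CD74 rose by 1.48 ± 0.19 (adjusted p = 8.25e-05), 2 of 6 genes where 12.4% of all genes passed. SLA-DQB1 differed by 1.00 ± 0.34 (adjusted p = 0.0597), and it passed with the replicate block (adjusted p = 0.0234) and without non-PP of pig 2 (adjusted p = 0.0296). SLA-DRA no longer passed without pig 1 (adjusted p = 0.0723) or pig 2 (adjusted p = 0.258). In the ileum the CD2-positive and CD2-negative cells lay side by side: SLA-DRA differed by 0.06 ± 0.34, SLA-DQB1 by -0.05 ± 0.33 and CD74 by -0.06 ± 0.19. There 0 of 6 passed in edgeR or DESeq2 and none had an unadjusted p under 0.05.

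The changes of the subsets were set against each other in tests of the difference itself, both added after the data were seen. Against CD4 T cells, the ileal rise of CD2-negative gamma delta T cells was larger by 2.65 ± 0.50 for SLA-DRA (adjusted p = 0.0169), 2.82 ± 0.50 for SLA-DQB1 (adjusted p = 0.0108) and 1.51 ± 0.27 for CD74 (adjusted p = 0.0108), 3 of 6 genes where 0.654% of all genes passed. SLA-DMB (3.11 ± 0.51) and SLA-DMA (1.93 ± 0.30) showed the same direction, and LGMN the opposite (-4.05 ± 0.71). Without non-PP of pig 2 the count stayed at 3. With either pig left out 0 of 6 passed, and with tracer-free cells the 3 adjusted p were 0.0636 to 0.066. Against CD8 T cells 0 of 6 passed, where 0.231% of all genes did, although SLA-DRA (1.69 ± 0.49), SLA-DQB1 (2.09 ± 0.48) and CD74 (1.15 ± 0.27) had unadjusted p of 0.0031, 0.000429 and 0.000503. DESeq2 called 2 of them, and with the replicate block SLA-DQB1 (2.09, adjusted p = 0.0212) and CD74 (1.14, adjusted p = 0.011) passed. The comparisons of one subset share its blood and ileal sums.

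**Figure D3:**
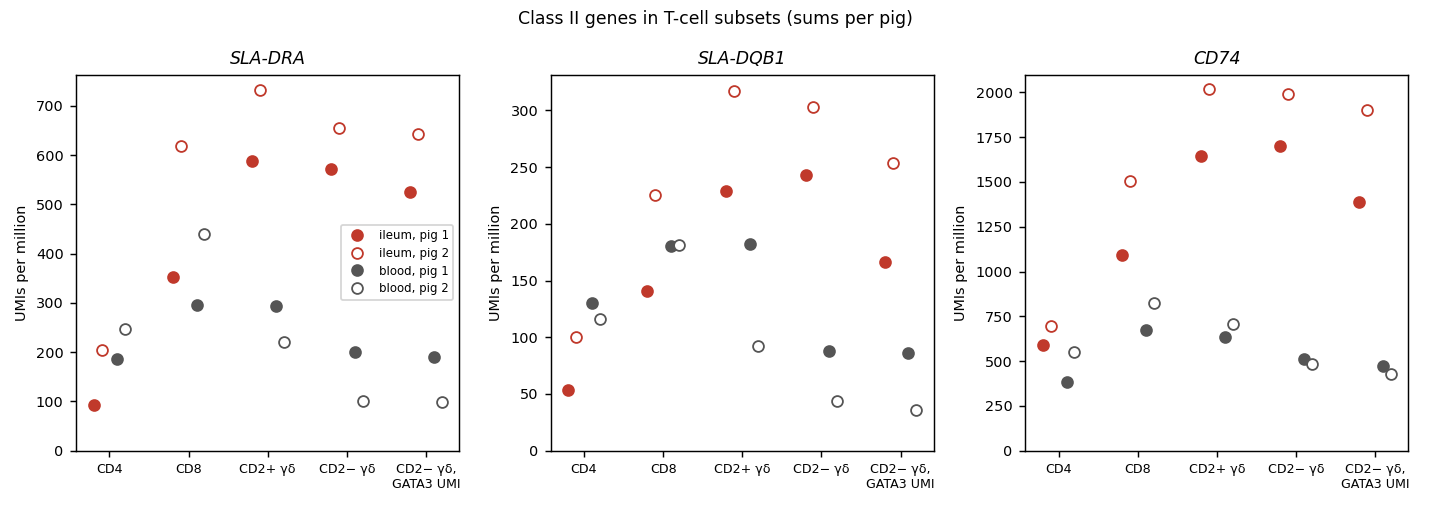
CPM of SLA-DRA, SLA-DQB1 and CD74 in T-cell subsets of ileum (red) and blood (grey), 1 point per pig (filled pig 1, open pig 2). In both gamma delta subsets every ileal point lies above every blood point for the 3 genes, whereas SLA-DRA of CD4 T cells overlaps between sites through the ileal sum of pig 2, which holds the non-PP library at 369 CPM.

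Within the ileum, CD8 T cells held more class II than CD4 T cells. SLA-DRA was at 353.5 and 618 CPM in CD8 and 93.0 and 205 CPM in CD4 T cells. SLA-DRA was higher in CD8 T cells by 1.75 ± 0.36 (adjusted p = 0.00652), SLA-DQB1 by 1.31 ± 0.35 (adjusted p = 0.0342) and CD74 by 1.07 ± 0.19 (adjusted p = 0.00238), 3 of 6 genes where 5.38% of all genes passed. Shares of cells showed the same order: a UMI of SLA-DRA was found in 49.9% to 76.4% of ileal CD8 and 20.9% to 25.6% of ileal CD4 T cells, and after thinning in 24.7% to 54.8% and 8.70% to 15.3%. SLA-DMB (1.66 ± 0.35) and SLA-DMA (1.52 ± 0.21) were also higher in CD8 T cells, and LGMN (-5.44 ± 0.40) and CTSB (-1.13 ± 0.23) lower. HLA-DOB was at -1.52 ± 0.51 (adjusted p = 0.101). Without non-PP of pig 2, 3 of 6 passed. Without pig 1, 0 of 6 passed, without pig 2 SLA-DRA and HLA-DOB did, and with free RNA subtracted 1 (CD79A and CD79B) or 0 (JCHAIN included) passed.

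The comparison of PP with non-PP tissue asks whether class II differs where organised lymphoid follicles are present. In the T gate, HLA-DOB was at 7.41 and 9.17 CPM in PP and 2.36 and 4.01 CPM in non-PP, and SLA-DOA at 3.63 and 2.99 CPM and 0.89 and 1.42 CPM. Both were higher in each PP library than in either non-PP library. HLA-DOB was higher by 1.44 ± 0.27 (adjusted p = 0.0493), 1 of 6 genes where 1.15% of all genes passed. SLA-DOA differed by 1.58 ± 0.34 (adjusted p = 0.0845) and passed with the replicate block (adjusted p = 0.0243), which made 2 of 6. SLA-DRA (-0.10 ± 0.23), SLA-DQB1 (0.23 ± 0.28), CD74 (0.12 ± 0.18) and CIITA (-0.12 ± 0.35) did not pass.

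The makeup of the gate and CD79B both moved with this result. CD4 T cells were 225 of 1884 and 168 of 1832 T-gate cells in PP, and 46 of 3249 and 85 of 2456 in non-PP. HLA-DOB was at 18.1 and 6.41 CPM in CD4 T cells of PP and at 0 in those of non-PP. In the 46 CD4 T cells of non-PP of pig 1, 1 UMI stands for 6.66 CPM. A count of 0 there does not place HLA-DOB below its level in PP of pig 2. In CD8 T cells it was at 3.99 and 8.19 CPM in PP and 0.83 and 3.47 CPM in non-PP. The part of makeup was not tested. CD79B was at 45.2 and 40.6 CPM in the T gate of PP and 0.79 and 1.29 CPM in that of non-PP. In free RNA CD79B was at 571 and 605 CPM in PP and 8.49 and 13.6 CPM in non-PP. After subtraction of free RNA estimated from CD79A and CD79B, 0 of 6 genes passed and SLA-DOA stood at -0.43. In tracer-free T cells HLA-DOB was at 8.47 and 8.38 CPM in PP and 2.39 and 3.99 CPM in non-PP. Without either pig 0 of 6 passed. CD40 (1.95 ± 0.32), SPI1 (1.66 ± 0.24) and LGMN (2.44 ± 0.26) were the 3 of 27 pathway genes that rose, where 1.15% of all genes passed. On the TMM scale CD40 was at 5.59 and 5.03 CPM in PP and 1.67 and 1.02 CPM in non-PP. The part of free RNA in this was not tested. In the B gate, where non-PP held 19 and 34 cells (pig 1 below the minimum of 20 used elsewhere) and PP 3237 and 3148, 0 of 6 genes passed in edgeR or DESeq2, none with an unadjusted p under 0.05, and 0.00959% of all genes passed. SLA-DRA was at 1834 and 1924 CPM in PP and 2910 and 2003 CPM in non-PP B cells, and the difference was -0.22 ± 0.23.

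**Figure D4:**
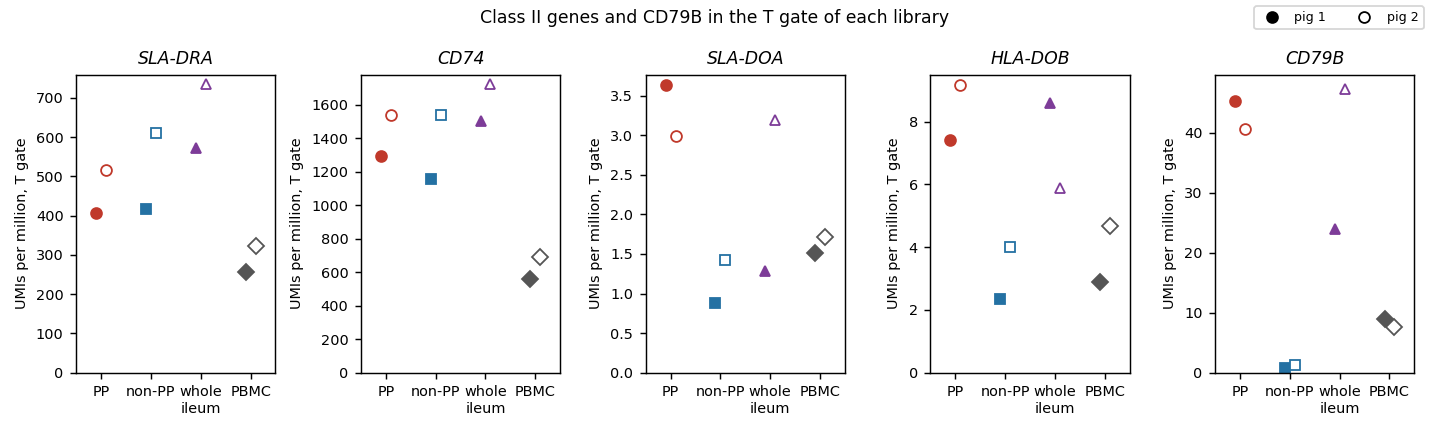
CPM of 4 class II genes and the B-cell transcript CD79B in the T gate of each library (filled pig 1, open pig 2). For SLA-DRA and CD74 the PP and non-PP points overlap, while SLA-DOA, HLA-DOB and CD79B are higher in both PP libraries.

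The ileal epithelial gate held 179 and 41 cells, with a median depth of 7492 to 10845 UMIs in the 5 libraries with at least 20 such cells. SLA-DRA was at 35.2 and 34.0 CPM and SLA-DQB1 at 10.1 and 14.6 CPM, below both T-gate sums. SLA-DRA was lower than in the T gate by -3.78 ± 0.35 (adjusted p = 2.45e-05), SLA-DQB1 by -4.08 ± 0.41 (adjusted p = 3.48e-05) and CD74 by -3.94 ± 0.26 (adjusted p = 3.81e-06). CIITA had 0 UMIs among 2001834 in 220 cells, which allows up to 1.499 CPM. Its measured level was 2.24-fold above that limit in the T gate (100 UMIs) and 14.6-fold above it in the B gate (574 UMIs), without the counting error of those UMIs. CIITA passed against the T gate (adjusted p = 0.0413). This made 4 of 6 genes where 44.5% of all genes differed, and 3 with the replicate block (CIITA adjusted p = 0.0663) or with either pig left out. HLA-DOB differed by -1.29 ± 0.60 (adjusted p = 0.109). SLA-DOA had 0 UMIs in PP and non-PP and did not pass either. Its limit of 1.499 CPM there lay 1.34-fold below the T-gate level of 2.01 CPM. In the epithelial gate of whole ileum of pig 2, outside these sums, SLA-DOA was at 1.86 CPM. This was 1 UMI in 56 cells, too few to set against that limit.

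The low epithelial level moved with the tissue. SLA-DRA was at 71.0 and 47.2 CPM in epithelial cells of PP and 10.6 and 16.7 CPM in those of non-PP, and CD79B at 23.2 and 21.5 CPM and 1.06 and 0 CPM. Whole ileum stood with PP, at 58.6 and 55.8 CPM of SLA-DRA beside 19.6 and 24.2 CPM of CD79B. The limit set by CD79A and CD79B was 83.5% to 328% of the SLA-DRA UMIs in the 5 libraries where it could be computed, the highest from 1 tracer UMI in non-PP of pig 1, and with JCHAIN included it was 56.1% to 101%. In epithelial-gate cells without a tracer UMI, SLA-DRA was at 87.4 CPM in PP of pig 1 (14 cells, 9 UMIs). It was at 58.8 CPM in whole ileum of pig 2 (14 cells, 5 UMIs). In non-PP it was at 12.6 CPM in pig 1 (105 cells, 10 UMIs) and 6.66 CPM in pig 2 (16 cells, 1 UMI). Beyond these values, the part of free RNA in the epithelial level was not tested. After thinning, 0% to 8.93% of epithelial-gate cells kept a UMI of SLA-DRA. CTSL (5.20 ± 0.69) was higher in epithelial cells and CD80 (-4.27 ± 0.67), SLA-DMB (-4.21 ± 0.32) and SPI1 (-2.65 ± 0.93) lower, among 4 higher and 13 lower of 28 pathway genes, where 44.5% of all genes differed.

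**Figure D5:**
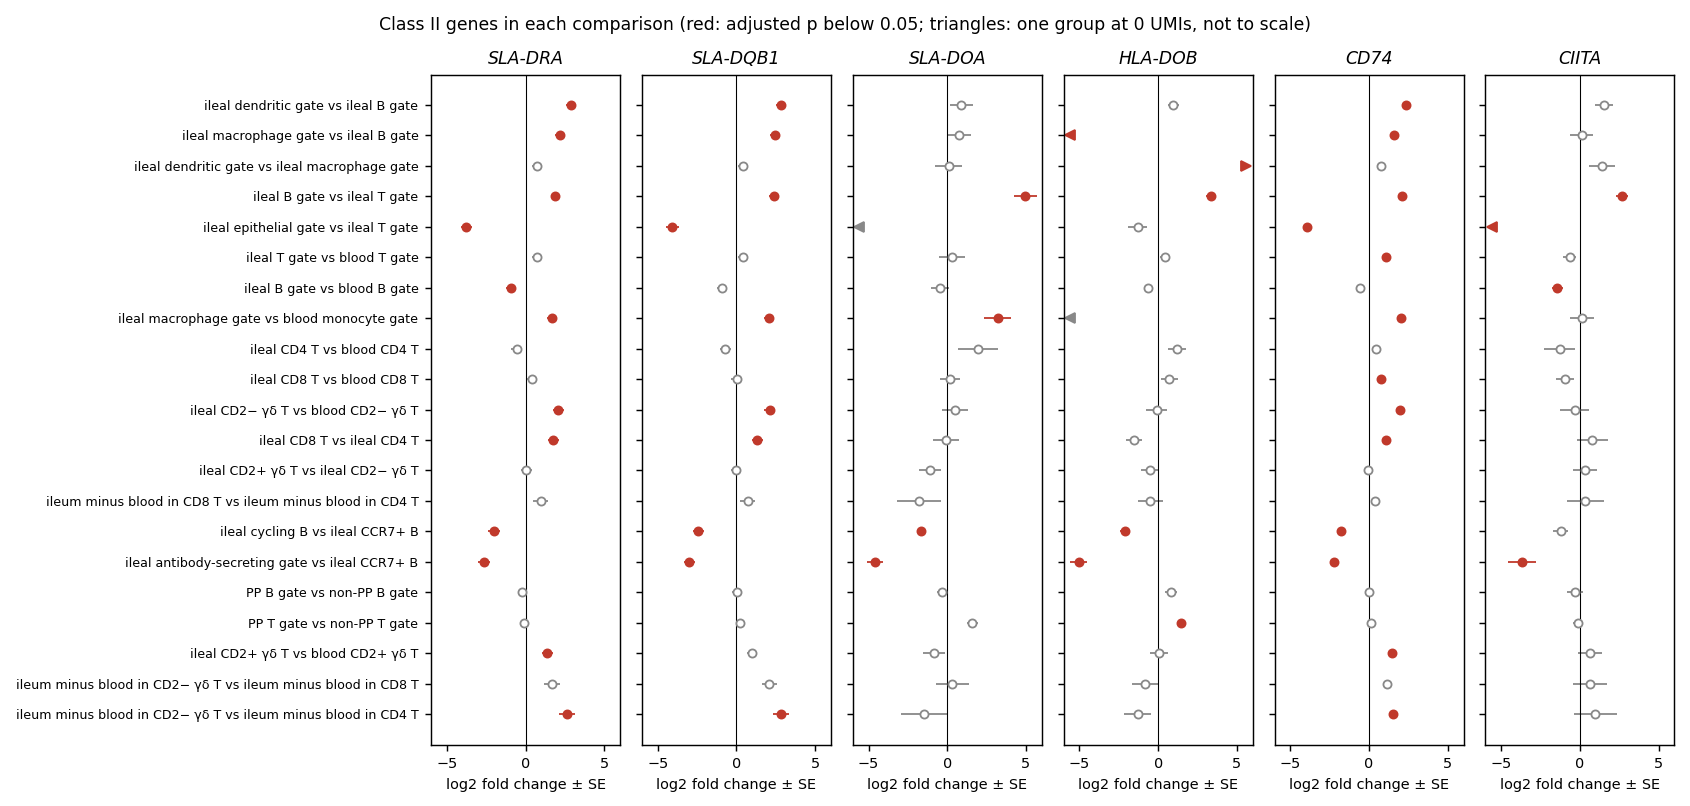
Log2 fold changes with their standard errors for the 6 genes in 21 comparisons; red marks an adjusted p below 0.05 and triangles mark a group at 0 UMIs, which are not drawn to scale. SLA-DRA, SLA-DQB1 and CD74 share their direction in the comparisons among the dendritic, macrophage, B, T and epithelial gates, and in antibody-secreting cells SLA-DOA (-4.58) and HLA-DOB (-5.06) have the largest decreases.

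The genes most like SLA-DRA over the 12 sums of the ileal B, T and epithelial and the blood B, T and monocyte gates were found by Pearson's r of log2 CPM among 11759 genes. They were ENSSSCG00000001455 (r = 0.996) and ENSSSCG00000001456 (r = 0.995), which carry no symbol in the files, then PECAM1 (0.978), the B-cell adaptor STAP1 (0.977) and NCF4 (0.975), a subunit of the phagocyte oxidase. Those most like CIITA were the same pair of unnamed genes (0.982 and 0.979), PECAM1 (0.976), EIF1AD (0.975) and HDAC9 (0.974). The Ensembl numbers of the unnamed pair lie between those of SLA-DRA (ENSSSCG00000001453) and SLA-DQB1 (ENSSSCG00000001457). Whether the pair are class II chains themselves was not examined, so their r may be that of class II with class II. These are descriptions over sums that share pigs and libraries. Other class II chains such as SLA-DQA1 and SLA-DRB1 were not analysed here under a symbol.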

How the data were processed

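Libraries were 10x 3' version 2 preparations, each sequenced in 4 runs. Per the labels and the study's methods, the authors mapped reads to Sus scrofa 11.1 with Cell Ranger (version 4.0.6 in the submitters' processing notes) and a modified Ensembl annotation, and deposited unfiltered UMI counts per barcode, which were used here; the 4 records of a library share 1 matrix. The files name 17733 of 25880 genes, a name table named 977 more, and 7170 stayed without a symbol. The columns of the matrices were all assigned to their libraries by label.

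Cells passed the study's filters, doublets were removed by a simulated-doublet score (above 0.25, 67 to 296 cells per library, expected rate 0.07), and gates were set on lineage transcripts. Counts were summed per pig and gate (PP with non-PP, at least 20 cells in both pigs) and tested with edgeR 4.0.16 (quasi-likelihood, TMM, filterByExpr, limma 3.58.1, R 4.3.3) over all genes with Benjamini-Hochberg adjustment at 0.05. The dendritic and macrophage gates missed the minimum of 20 cells and were fitted with a minimum of 10, chosen after the data were seen, as were 3 of 21 comparisons, leaving out non-PP of pig 2, tracer-free cells, CD79A and CD79B as tracers without JCHAIN, CCR7-positive B cells alone and GATA3-positive cells alone. No minimum was applied to PP against non-PP, where the non-PP B sum of pig 1 held 19 cells. Comparisons of the T and B subsets shared a fit, as did those of PP with non-PP. DESeq2 1.42.0 was an alternative. Free RNA came from barcodes of 10 to 100 UMIs. Levels, shares and the limits of 3 counts were computed in Python 3.11.15. On simulated counts with 200 changed genes, 36% of log2 changes of 1 and 100% of 2 were recovered for ileal B against T, 31% and 85% for ileal against blood CD8 T, and 29% and 96% for PP against non-PP T.

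The members and the lists were chosen with earlier results of these data known. The pathway genes named were the up to 4 largest changes past the threshold in each comparison. The pig numbers pair the samples, since labels give the same animals, and the median correlation of deviations between same-numbered sums was 0.233, 0.092, 0.261 and 0.253 in the fits. With 2 pigs, p-values measure the spread between those pigs only, and intervals and limits cover counting error only.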

Additional observations from a re-analysis of the deposited data

Results flagged for a closer look

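The difference of differences (ileum minus blood in CD2-negative gamma delta T cells, less ileum minus blood in CD4 T cells, log2) was 2.65 for SLA-DRA, 2.82 for SLA-DQB1 and 1.51 for CD74, and an interaction term tested it directly in edgeR (adjusted p = 0.0169, 0.0108 and 0.0108), in a comparison added after the data were seen. The CD2-negative gate rests on the absence of a CD2 UMI, and its ileal and blood cells also differed in GATA3, at 90.1 and 85.0 CPM against 319.9 and 521 CPM in the CD2-negative gate, and the part of this in the result was not tested.

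The whole ileum library labelled pig 1 (female) held 205.9 CPM of 4 Y-linked genes. These genes are part of no comparison above, and the library entered only the repeats with whole ileum added. The other 3 libraries of pig 1 held 0 to 0.229 CPM, and the libraries of pig 2 (male) held 119.1 to 225.1 CPM.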

How the results depend on the processing

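All counts are of the 6 class II genes past the threshold. With the pig as a replicate block (pairing by animal), ileal against blood B cells went from 2 to 4, PP against non-PP T cells from 1 to 2 and the difference of CD2-negative gamma delta from CD8 T cells from 0 to 2; single calls that changed under the block stand beside their results, and no direction turned. DESeq2 gave 5 in place of 3 for dendritic against B cells, 2 in place of 1 for PP T cells and 2 in place of 0 for CD2-negative gamma delta against CD8 changes. DESeq2 size factors in edgeR gave 1 for ileal against blood B cells and 0 for PP T cells. Without a filter on low counts dendritic against macrophage cells had 2 in place of 1 and CD2-negative gamma delta against CD8 changes 3. With doublets kept ileal against blood B cells had 1. Sums per library gave 0 for dendritic against macrophage cells, 0 for ileal against blood T cells and 1 for B cells. Adding whole ileum gave 2 for T cells and 1 for CD2-negative gamma delta against CD8 changes.

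With free RNA subtracted (CD79A, CD79B and JCHAIN), the count was 0 for dendritic against macrophage cells, for ileal against blood T, B, CD8 and CD2-negative gamma delta T cells, for CD8 against CD4, for PP T cells and for CD2-negative gamma delta against CD4 changes, 1 in place of 2 for CD2-positive gamma delta T cells and 2 in place of 5 for cycling B cells. With CD79A and CD79B alone it was 0 for T, CD8 and PP T cells, 1 for B, CD2-negative and CD2-positive gamma delta T cells, CD8 against CD4 and CD2-negative gamma delta against CD4 changes, and 3 for cycling B cells. In tracer-free cells it was 1 for ileal against blood B cells and 0 for CD2-negative gamma delta against CD4 changes, and among CCR7-positive B cells 0. Neither the subtraction nor the choice of tracer-free cells was applied to the B, CCR7-positive B, cycling B or antibody-secreting sums. Under these settings, counts between B-lineage sums moved only through the fit shared with the altered sums. For the other counts the cause was not tested.

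Without non-PP of pig 2 alone, ileal against blood B cells had 1 in place of 2, CD4 T cells 1 in place of 0 and CD2-positive gamma delta T cells 3 in place of 2. Leaving out either pig gave 0 to 0 for dendritic against macrophage cells, for ileal against blood T, B and CD8 T cells, for PP T cells and for CD2-negative gamma delta against CD4 changes. It gave 0 to 2 for CD8 against CD4, 2 to 4 for macrophages against monocytes, 1 to 3 for CD2-negative and 1 to 2 for CD2-positive gamma delta T cells, 3 to 4 for macrophages against B cells, 4 to 5 for cycling B cells, and 6 to 6 for B against T cells.

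Directions turned as follows (log2). Among CCR7-positive B cells ileum against blood was 0.40 for SLA-DRA, 0.643 for SLA-DQB1, 0.602 for HLA-DOB and 0.552 for CD74. SLA-DOA turned there too, at 168.9 and 113.7 CPM in the ileum and 114.9 and 95.75 CPM in blood on the TMM scale. CD74 in CD4 T cells was -0.208 and -0.114 with free RNA subtracted by 3 and by 2 tracers. SLA-DQB1 in CD8 T cells was -0.32 without pig 2 (0.278 without pig 1), -0.00099 without the filter, -0.0422 with doublets, -0.00847 with stricter gates and -0.0682 in tracer-free cells. HLA-DOB in CD8 against CD4 T cells was 0.337 without pig 1 (-2.86 without pig 2) and 0.558 with free RNA subtracted. In CD2-positive against CD2-negative gamma delta T cells SLA-DQB1 was 0.00803 without the filter, 0.349 and 0.174 with free RNA subtracted by 3 and 2 tracers and 0.0103 per library, CD74 was 0.319, 0.159 and 0.0134 in the last 3, and SLA-DRA was -0.00463 in tracer-free cells; without non-PP of pig 2 SLA-DQB1 was 0.0801 and CD74 0.0265 (-0.0699 without pig 1). In PP against non-PP B cells SLA-DRA was 0.304 without pig 1, 0.0686 without the filter and 0.0595 with stricter gates, and SLA-DQB1 was -0.0723 without pig 2 (0.528 without pig 1), -0.0722 with DESeq2 size factors and -0.0702 with DESeq2. CD74 there was 0.366 and 0.0223 without pig 1 and pig 2, 0.277 without the filter, 0.00041 with doublets, 0.195 with stricter gates, 0.00105 and 0.126 with free RNA subtracted and 0.134 in tracer-free cells. In PP against non-PP T cells, free RNA subtraction by 3 and 2 tracers gave -1.58 and -0.206 for SLA-DQB1, -5.34 and -0.43 for SLA-DOA, and -1.71 and -0.315 for CD74, and -0.364 for HLA-DOB by 3 tracers.

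Stricter gates left too few dendritic cells and tracer-free cells too few dendritic and macrophage cells to fit, and whole ileum and sums per library do not apply to PP against non-PP. The dendritic and macrophage sums hold 15 to 30 cells per pig, which limits the scarce genes SLA-DOA, HLA-DOB and CIITA.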
